A study of Homo sapiens with 6 samples.

Results

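The genes of the heterotrimeric G proteins, which relay signals from CXCR4 and other receptors with 7 membrane-spanning segments, were followed in Jurkat cells before and after CXCL12. The set was a list of 32 symbols, 15 alpha, 5 beta and 12 gamma subunit genes, each read from the probe set that the platform annotation names for it. All 32 had a probe set, and each had exactly 1, out of 21448 probe sets and 17687 named genes in the table. Jurkat is a long-established line from a human T-cell acute lymphoblastic leukaemia (T-ALL). Cells grown with 10% serum were kept without serum for 90 min in both groups. They then received no ligand (untreated, n = 3) or the chemokine CXCL12 at 100 ng/ml for 15 min (CXCL12, n = 3), and total RNA of each sample was hybridised to 1 array. The samples are labelled biological replicates, but separate cultures are not stated, so p-values rest on a spread between samples that could be technical in part.

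A heterotrimeric G protein is an alpha subunit that binds GDP or GTP, held on the inner face of the plasma membrane with a beta-gamma pair. An activated receptor makes alpha exchange GDP for GTP, after which alpha and beta-gamma act on separate effectors until alpha hydrolyses its GTP. Alpha subunits fall into the Gi/o/z, Gs, Gq and G12/13 families, which respectively are known for inhibiting adenylyl cyclase, stimulating it, activating phospholipase C beta and activating RhoGEFs. CXCR4 is known to couple mainly to Gi proteins, and beta-gamma released from them drives PI3-kinase and calcium signals in T cells.

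The T-cell label was borne out by the arrays: 10 of 10 T-cell markers, among them CD3E and LCK, had mean log2 signals from 8.26 to 11.4. Values are log2 signals after robust multi-array averaging (RMA), and probe sets respond differently to their targets. The levels of subunit genes are therefore not ranked against each other, and the comparison with marker probe sets below has this same limit. A probe set was called dim, and not tested, where its mean over the 6 arrays lay below the 25th percentile of all probe sets, a log2 signal of 4.44. Array medians ran from 6.18 to 6.22. Untreated replicate 1 stood apart, with a mean correlation to the other arrays of 0.982 against 0.987 to 0.989, so each result was also computed without it; the count of subunit genes past the adjusted threshold was then 0, as with it.

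Of the 32 subunit genes, 30 lay above the dim limit, on each of the 6 arrays, and 2 lay below it. These 2 were GNGT1, the gamma subunit of rod photoreceptors, and GNG11, a widely found gamma subunit with the same kind of lipid anchor. Their signals ran from 2.60 to 2.94 and from 2.58 to 3.22 over the 6 arrays. A signal above the limit is weak evidence of a transcript, since 12 of 24 markers of B, myeloid, erythroid, platelet, epithelial, fibroblast, photoreceptor, liver and pancreatic cells lay above it too. The highest of these marker means, called the marker ceiling here, was 7.92 (CD79A), followed by 7.85 (COL1A2) and 7.46 (HBA1). A stricter reading, chosen after the values were seen, took the subunit genes above all 24 markers and left 11. It compares different probe sets, so the side of the ceiling does not by itself show that a gene is expressed or not.

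These 11 genes covered each part of the trimer and each alpha family. They were GNAI2 and GNAI3 (Gi), GNAS (Gs), GNAQ and GNA15 (Gq), GNA13 (G12/13), the beta genes GNB1, GNB2 and GNB4, and the gamma genes GNG2 and GNG5. Their means over 6 arrays were 10.9 for GNAI2, 9.35 for GNAI3, 10.3 for GNAS, 10.1 for GNAQ, 9.64 for GNA15, 9.38 for GNA13, 11.1 for GNB1, 9.49 for GNB2, 8.21 for GNB4, 8.74 for GNG2 and 10.1 for GNG5. A further 19 genes lay between the dim limit and the highest marker. Among them were subunits known from other tissues, such as GNAT1 and GNAT2 (transducin alpha of rods and cones), GNB3 (cone beta), GNAO1 (the main alpha of brain), GNAL (olfactory and striatal Gs-type alpha), GNG3 (brain) and GNG13 (taste and olfactory cells). Whether these signals come from transcripts or from background hybridisation was not tested. Of 6 other photoreceptor markers, 5 were dim, and the PDE6B probe set read 6.80.

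**Figure D1:**
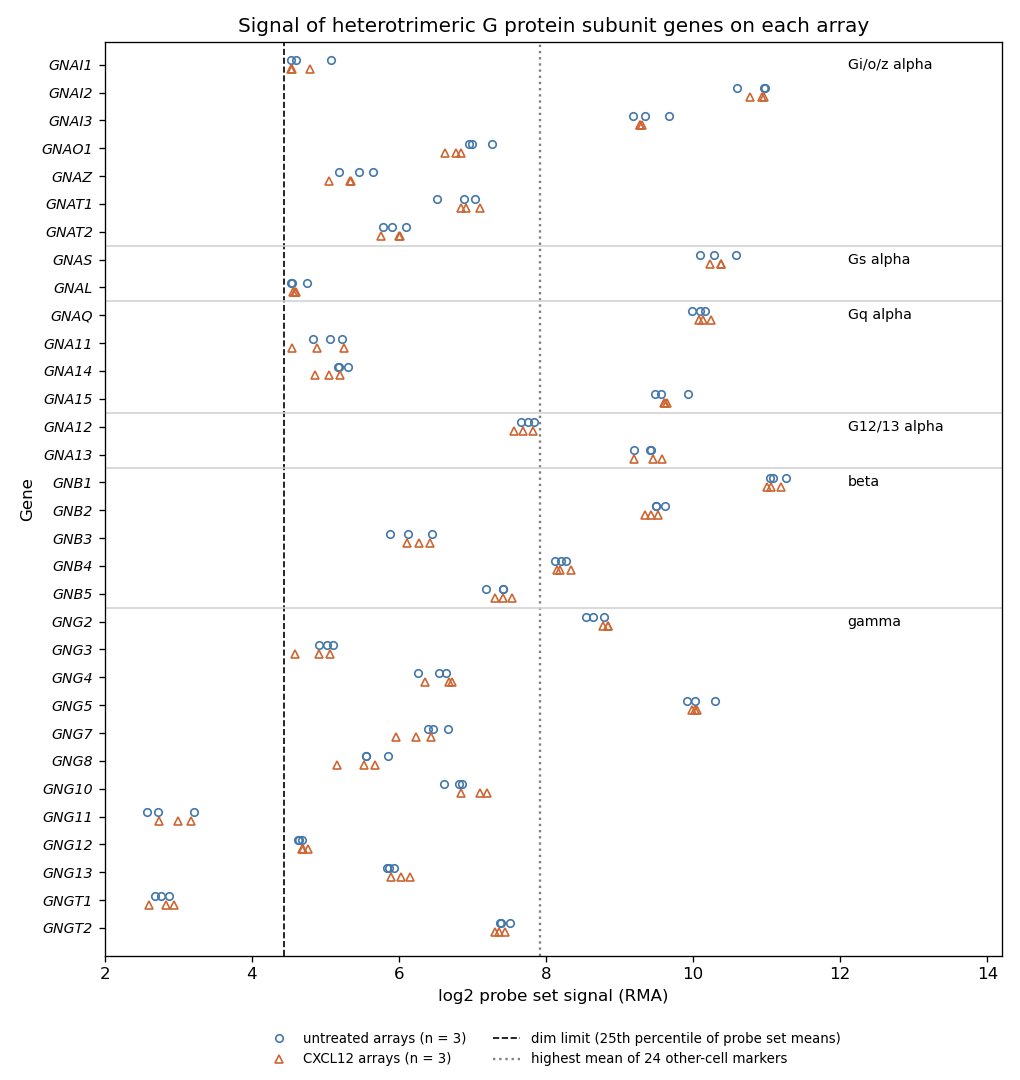
Log2 probe set signal (horizontal axis) of each of the 32 subunit genes (rows, by family), with circles for the 3 untreated and triangles for the 3 CXCL12 arrays. The dashed line is the dim limit of 4.44 and the dotted line the highest other-cell marker mean of 7.92; 11 genes lie to the right of the dotted line and GNG11 and GNGT1 to the left of the dashed line.

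No subunit gene passed the test for a difference with CXCL12. After Benjamini-Hochberg adjustment 0 of 30 tested subunit genes passed in limma (adjusted p from 0.996 to 0.999), where 2 of 16086 probe sets (0.0124%) did. At an unadjusted limma p under 0.05 there was 1 of 30, GNAO1, where 4.73% of all probe sets reached it, 2.72% higher and 2.01% lower with CXCL12. The groups did not overlap for that 1 gene of 30, against 9.54% of all probe sets, 5.05% higher and 4.48% lower with CXCL12. By value 13 genes lay higher and 17 lower, with a median log2 change of -0.034 against 0.0023 over all tested probe sets, and the median size of a change was 0.105 against 0.096. In bulk RNA, fewer cells with a transcript and less transcript per cell cannot be told apart.

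The arrays set limits on the changes in signal that could have gone unseen. For genes below the marker ceiling this is a limit on the probe set signal only. Whether that signal comes from transcripts was not tested. For 28 of the 30 genes the 95% interval of the change lay within a 1.5-fold change either way, against 89.9% of all probe sets. The exceptions were GNAO1 and GNG7, whose intervals reached 0.658 and 0.653 times the untreated signal. Replicate spread was like that of the table: the residual SD had a median of 0.156 over the 30 genes and 0.162 over all probe sets. It ran from 0.037 for GNG12 to 0.286 for GNA11, which encodes a Gq-family alpha, and the SD was larger among untreated than among CXCL12 arrays for 17 of the 30.

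**Figure D2:**
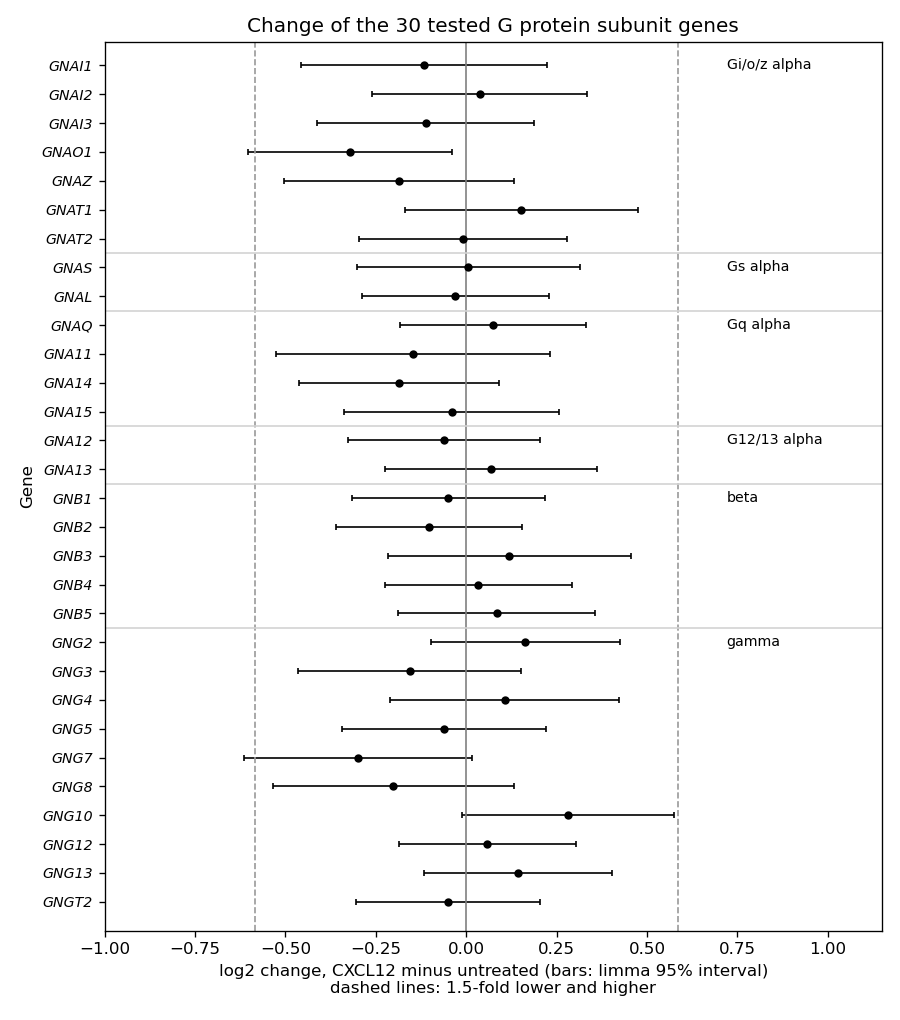
Log2 change, CXCL12 minus untreated (horizontal axis), of the 30 tested subunit genes (rows, by family), with limma 95% intervals as bars. The GNAO1 interval (-0.60 to -0.040) is the 1 interval that leaves out 0, and those of GNAO1 and GNG7 are the 2 that cross the dashed line of a 1.5-fold fall.

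The Gi alpha subunits, the partners through which CXCR4 is best known to act, differed between the groups by less than the SD of the untreated arrays. GNAI2, the Gi alpha most associated with lymphocyte migration, read 10.60, 10.98 and 10.97 in untreated replicates 1, 2 and 3 and 10.94, 10.77 and 10.96 in CXCL12 replicates 1, 2 and 3. Untreated replicate 1 was the lowest array and untreated replicates 2 and 3 were just above all CXCL12 arrays, so the groups overlapped through replicate 1 alone. The log2 change was 0.037 (SE 0.14, 95% interval -0.26 to 0.33), or 1.03-fold with an interval from 0.835 to 1.26. Without untreated replicate 1 it was -0.087, so that array decided the sign of a change that did not pass.

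GNAI3, a close Gi paralogue, read 9.67, 9.19 and 9.35 in the untreated and 9.28, 9.28 and 9.31 in the CXCL12 arrays. All CXCL12 values fell inside the untreated range, and untreated replicate 1 was the highest array. The change was -0.11 (SE 0.14, 95% interval -0.41 to 0.19), and 0.021 without untreated replicate 1. GNAI1, the third Gi alpha, read 4.60, 4.54 and 5.08 in the untreated and 4.79, 4.53 and 4.55 in the CXCL12 arrays, close to the dim limit in both groups. Untreated replicate 3 alone was high; the change of -0.12 (95% interval -0.46 to 0.22) was 0.052 without it.

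GNAO1, an alpha of the Gi/o family that is abundant in neurons, had the lowest value relative to untreated cells among the 30 genes. Its arrays read 7.26, 6.99 and 6.96 untreated and 6.63, 6.78 and 6.84 with CXCL12. Each CXCL12 array lay below each untreated array, and untreated replicate 1 was the highest of the 6. The means were 7.07 ± 0.17 and 6.75 ± 0.11 (SD, n = 3 each), a log2 change of -0.32 (SE 0.13, limma adjusted p = 0.996), or 0.800 times the untreated signal. It was -0.23 without untreated replicate 1, and the unadjusted limma p was under 0.05 in 4 of the 6 fits that left out 1 array. These fits reuse the same arrays, so they are not independent of the full fit. The level lay below the marker ceiling of 7.92, so expression of GNAO1 in these cells is not established by the signal.

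GNAZ, the pertussis toxin-insensitive member of the family, read 5.65, 5.46 and 5.18 untreated and 5.05, 5.33 and 5.35 with CXCL12, a change of -0.19 (95% interval -0.50 to 0.13) with overlapping groups. GNAT1 read 6.88, 7.03 and 6.52 untreated and 7.10, 6.92 and 6.85 with CXCL12. Its change of 0.15 (95% interval -0.17 to 0.47) was 0.0079 without untreated replicate 3, the lowest array. GNAT2 had 5.93 ± 0.16 and 5.92 ± 0.14 (SD, n = 3 each), a change of -0.0085.

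Some alpha genes of this family sit close together in the genome. In the 2 such pairs found within the list, the genes fell on different sides of the marker ceiling. Pairs with genes outside the list were not looked for, such as any with the alpha gene GNAT3, whose probe set was dim (mean 3.03). In RefSeq's gene order GNAI3 and GNAT2 are adjacent, and 1 protein-coding gene lies between GNAT1 and GNAI2. The upstream sequences of the GNAT1 and GNAI2 pair are shown because GNAI2 lay above all 24 markers and GNAT1 did not. Both are the 250 bases before an annotated start (RefSeq, GRCh38.p14, plus strand, 5′ to 3′), with CG dinucleotides in capitals. For GNAI2, which has 3 listed starts, the start with most CG is given, chr3:50235954-50236203; for GNAT1 the single listed start is given, chr3:50191360-50191609.
GNAI2: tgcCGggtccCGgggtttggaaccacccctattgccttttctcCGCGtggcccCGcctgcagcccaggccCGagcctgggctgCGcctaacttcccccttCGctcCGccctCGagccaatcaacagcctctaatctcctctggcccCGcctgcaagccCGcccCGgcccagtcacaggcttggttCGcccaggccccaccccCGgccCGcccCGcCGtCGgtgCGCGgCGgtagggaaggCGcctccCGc
GNAT1: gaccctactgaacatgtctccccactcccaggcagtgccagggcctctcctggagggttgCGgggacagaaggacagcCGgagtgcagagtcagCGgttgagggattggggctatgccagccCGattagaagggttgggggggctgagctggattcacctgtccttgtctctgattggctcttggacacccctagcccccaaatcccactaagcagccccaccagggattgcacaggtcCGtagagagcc
The GNAI2 window holds 24 CG, a ratio of observed to expected CG of 0.774, and the GNAT1 window 5, a ratio of 0.214. The contrast depends on the start chosen, since the lowest ratio among the 3 GNAI2 starts was 0.174. In the other pair the ratio was 1.013 for GNAI3 and 0.738 and 0.199 for the 2 starts of GNAT2. Whether the ratio goes with the signal was not tested. Over the set, 27 of the 32 genes had a listed start, and 19 of these 27 (70.4%) had at least 1 start with a ratio of 0.6 or more, against 50.6% of all 27305 genes listed. The 27 genes had 48 starts and all 27305 genes had 35116. More starts per gene raise a share counted in this way, so the 2 shares are not directly comparable. The ratio varied among members: GNG2 had 5 listed starts and none with a ratio above 0.431, while GNAL had a start with a ratio of 1.19.

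GNAS encodes the alpha subunit that stimulates adenylyl cyclase. It had 10.33 ± 0.25 untreated and 10.33 ± 0.085 with CXCL12 (SD, n = 3 each), a change of 0.0063 with a 95% interval from -0.30 to 0.31. This imprinted locus gives several transcripts, and whether the probes separate them is not given in the sources used here. GNAL, the other Gs-type alpha, was near the dim limit with 4.61 ± 0.12 and 4.58 ± 0.016, a change of -0.029.

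Of the Gq family, which acts through phospholipase C beta, GNAQ and GNA15 lay above the marker ceiling and GNA11 and GNA14 near the dim limit. GNAQ had 10.08 ± 0.089 and 10.16 ± 0.079 (SD, n = 3 each), a change of 0.075. GNA15, an alpha of blood cells known for coupling to many kinds of receptor, had 9.66 ± 0.24 and 9.62 ± 0.013, a change of -0.039. These genes also lie in adjacent pairs, GNA14 with GNAQ and GNA11 with GNA15, and in each pair 1 gene was above the ceiling and the other was not.

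GNA14 read 5.17, 5.31 and 5.19 untreated and 5.20, 5.05 and 4.86 with CXCL12, a change of -0.19 (95% interval -0.46 to 0.091). CXCL12 replicate 3 was the lowest, and replicate 1 lay within the untreated range. GNA11 had the widest spread of the 30 genes, 5.04 ± 0.20 and 4.90 ± 0.35, and its change of -0.15 ran from -0.32 to 0.026 when CXCL12 replicate 3 or 2 was left out. The G12/13 alphas, which act on RhoGEFs, had changes of -0.061 for GNA12 (7.75 ± 0.088 and 7.69 ± 0.13) and 0.068 for GNA13 (9.34 ± 0.13 and 9.41 ± 0.19), each with an interval that included 0.

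The beta subunits form the propeller that carries gamma and binds effectors such as PI3-kinase gamma. GNB1 read 11.05, 11.27 and 11.09 untreated and 11.06, 11.20 and 11.00 with CXCL12. The groups overlapped, with a change of -0.050 (SE 0.12, 95% interval -0.32 to 0.22). GNB2 read 9.50, 9.62 and 9.49 untreated and 9.34, 9.53 and 9.43 with CXCL12. CXCL12 replicates 1 and 3 were below the untreated arrays and replicate 2 was not; the change was -0.10 (SE 0.12, 95% interval -0.36 to 0.15).

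GNB3 read 6.12, 6.45 and 5.88 untreated and 6.11, 6.27 and 6.42 with CXCL12, a change of 0.12 (95% interval -0.22 to 0.46) that was -0.014 without untreated replicate 3. GNB4 had 8.19 ± 0.074 and 8.23 ± 0.100 (SD, n = 3 each), a change of 0.034. GNB5, the divergent beta that pairs with R7-type RGS proteins rather than with a gamma subunit, had 7.34 ± 0.13 and 7.42 ± 0.12, a change of 0.084. The 5 beta genes thus had changes between -0.10 and 0.12, 3 of them above 0.

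Gamma subunits anchor the pair to the membrane through a prenyl group, and they held the widest range of changes. GNG2 read 8.79, 8.54 and 8.64 untreated and 8.78, 8.84 and 8.84 with CXCL12. The CXCL12 arrays were close together, and the lowest of them was just under untreated replicate 1. The change was 0.16 (SE 0.12, 95% interval -0.097 to 0.42), or 1.12-fold. GNG5, the other gamma above the ceiling, had 10.09 ± 0.20 and 10.02 ± 0.041 (SD, n = 3 each), a change of -0.061 that was 0.048 without untreated replicate 1.

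GNG10, a widely found gamma, had the highest value relative to untreated cells in the set. Its arrays read 6.61, 6.82 and 6.86 untreated and 7.10, 6.84 and 7.20 with CXCL12. CXCL12 replicates 1 and 3 were above all untreated arrays, and replicate 2 was not. The change was 0.28 (SE 0.13, 95% interval -0.012 to 0.58, limma adjusted p = 0.996), or 1.22-fold, and ran from 0.20 to 0.39 when single arrays were left out. A read-through transcript joins DNAJC25, the gene upstream, to GNG10, and whether the probes separate it is not given in the sources used here.

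GNG7, a gamma known for pairing with Gs-type alphas in the striatum, read 6.39, 6.47 and 6.67 untreated and 6.24, 6.44 and 5.96 with CXCL12. CXCL12 replicate 3 was the lowest array and replicate 2 lay inside the untreated range. The change was -0.30 (SE 0.15, 95% interval -0.62 to 0.017, limma adjusted p = 0.996), or 0.813 times, and -0.17 without CXCL12 replicate 3. GNG8 read 5.85, 5.56 and 5.55 untreated and 5.53, 5.16 and 5.67 with CXCL12, a change of -0.20 (95% interval -0.53 to 0.13) that was -0.055 without CXCL12 replicate 2.

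The remaining gamma genes had changes of -0.16 (GNG3, 5.01 ± 0.097 and 4.86 ± 0.24), 0.11 (GNG4, 6.48 ± 0.20 and 6.58 ± 0.20), 0.059 (GNG12, 4.65 ± 0.033 and 4.71 ± 0.041), 0.14 (GNG13, 5.88 ± 0.050 and 6.03 ± 0.12) and -0.050 (GNGT2, 7.42 ± 0.073 and 7.37 ± 0.071; SD, n = 3 each). Each interval included 0. GNGT2 is the cone gamma, which is also found in blood cells. GNG11 and GNGT1, adjacent in RefSeq's order, were the 2 dim genes and were not tested; their untreated and CXCL12 means were 2.84 and 2.97, and 2.78 and 2.79.

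**Figure D3:**
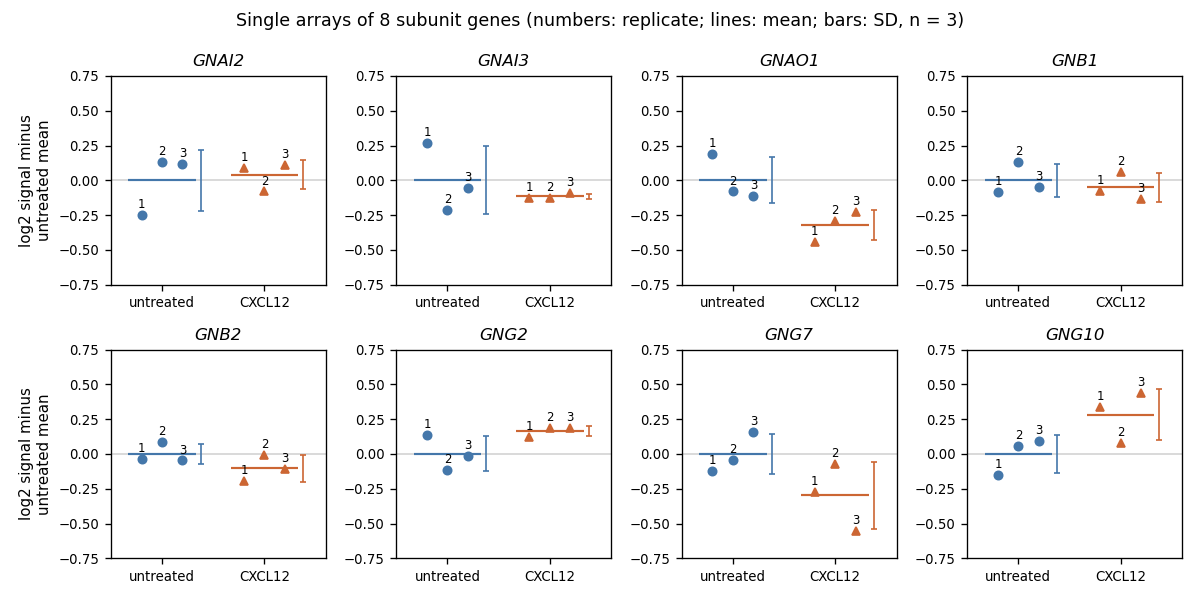
Log2 signal minus the untreated mean (vertical axis) on each array for 8 subunit genes, with replicate numbers, the mean as a line and the SD (n = 3) as a bar. GNAO1 is the 1 gene of the 8 whose groups do not overlap; in GNG7 CXCL12 replicate 3 lies lowest, in GNG10 CXCL12 replicate 2 lies within the untreated range, and in GNAI2 and GNAI3 untreated replicate 1 lies farthest from the rest.

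The upstream sequences of GNAO1 and GNG7, the genes with the lowest values relative to untreated cells, are shown because they were the 2 of 27 member genes with a start that holds the full cyclic AMP response element. This motif, TGACGTCA, is the site known for the factor CREB, which acts downstream of adenylyl cyclase. The match was looked for after the changes were known, and neither gene passed the test. Whether the motif goes with a change in signal was not tested. The windows are the 250 bases before the single listed start of each gene (RefSeq, GRCh38.p14, 5′ to 3′), chr16:56191239-56191488 on the plus strand for GNAO1 and chr19:2702695-2702944 on the minus strand for GNG7, with the motif in capitals.
GNAO1: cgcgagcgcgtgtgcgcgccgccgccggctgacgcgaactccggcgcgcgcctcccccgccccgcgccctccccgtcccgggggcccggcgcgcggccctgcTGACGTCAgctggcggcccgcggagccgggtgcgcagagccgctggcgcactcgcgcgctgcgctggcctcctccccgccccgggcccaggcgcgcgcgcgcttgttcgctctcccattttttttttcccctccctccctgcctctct
GNG7: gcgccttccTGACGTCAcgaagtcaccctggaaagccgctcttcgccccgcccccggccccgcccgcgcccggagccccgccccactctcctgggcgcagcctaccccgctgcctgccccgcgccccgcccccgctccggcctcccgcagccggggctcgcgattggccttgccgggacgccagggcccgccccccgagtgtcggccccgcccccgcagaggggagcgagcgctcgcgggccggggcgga
The motif covers bases 148 to 141 before the start in GNAO1 and 241 to 234 in GNG7. It reads the same on both strands and occurs in 555 of all 27305 genes listed (2.03%), against 7.41% of the 27 member genes. These shares also count a gene with a match at any of its starts. The motif GCGTGGGCG, a site known for EGR1, was searched on both strands as well and was in 0 of the 27 member genes and 0.886% of all genes. A match is a stretch of letters and does not show that a factor binds there.

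Among genes that work with the trimer, none passed the adjusted threshold either. Of 36 partner genes with a probe set, 33 were tested and 0 passed after adjustment in limma, where 0.0124% of all probe sets did. At an unadjusted limma p under 0.05 there was 1 of the 33 (CXCR4), where 4.73% of all probe sets reached it. By value 16 lay higher and 17 lower, with a median log2 change of -0.022. The median size of a change was 0.144, against 0.105 for the subunit genes and 0.096 over all tested probe sets. CXCR4, the CXCL12 receptor, read 11.17, 10.88 and 10.73 untreated and 10.43, 10.75 and 10.48 with CXCL12, so the groups overlapped. The change was -0.37 (SE 0.15, 95% interval -0.69 to -0.056, limma adjusted p = 0.996), and -0.25 without untreated replicate 1, the highest array. PGGT1B, the catalytic beta subunit of the enzyme that attaches geranylgeranyl to most gamma subunits, read 6.47, 6.14 and 6.31 untreated and 6.60, 6.45 and 6.67 with CXCL12, a change of 0.27 (95% interval -0.015 to 0.55). CXCL12 replicate 2 lay just under the highest untreated array.

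ADCY4, an adenylyl cyclase that beta-gamma can stimulate, read 4.96, 4.72 and 5.06 untreated and 5.21, 5.22 and 5.09 with CXCL12, a change of 0.26 (95% interval -0.018 to 0.54). Of the 33, 5 had groups that did not overlap, against 1 of the 30 subunit genes and 9.54% of all probe sets. With CXCL12 ADCY4 and PIK3CG, the catalytic subunit of PI3-kinase gamma, were higher by value. NMT2, which attaches myristate to Gi alphas, FNTA, the subunit shared by both prenyltransferases, and GRK2, the receptor kinase that binds beta-gamma, were lower by value. The means of ADCY4 (5.04), PIK3CG (7.72), NMT2 (7.46), FNTA (6.79) and PGGT1B (6.44) lay below the marker ceiling, and that of GRK2 (8.61) above it. Whether the signals below the ceiling come from transcripts was not tested. By role, the median change was -0.26 for the CXCL12 receptors (2 genes), -0.17 for receptor kinases (2) and -0.16 for exchange factors and chaperones (6). It was -0.11 for lipid attachment enzymes (6), 0.060 for adenylyl cyclases (6) and -0.051 for phospholipases C beta (3). The PI3-kinase group had 0.016 (5) and RhoGEFs 0.044 (3), and 0 genes passed in any role.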

How the data were processed

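RNA was measured on 6 arrays. The deposited table holds 1 log2 signal per probe set and array; the submitters' processing notes name RMA and the Transcriptome Analysis Console. Settings and build: not given in the sources used here. RMA normalizes the arrays together, so a shift common to most transcripts would be removed. Scanner files, detection calls and scan batches were not analysed here.

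The platform annotation supplied names (17709 of 21448 with 1 symbol), and all 32 symbols matched a single probe set. The fit was limma 3.58.1 in R 4.3.3 (lmFit, eBayes, two-sided, no covariates) over 16086 probe sets at or above the 25th percentile of means, with Benjamini-Hochberg adjustment at 0.05, and was tested on simulated data. Changes are CXCL12 minus untreated, with moderated SE and 95% interval. Members, partner and marker lists were chosen with earlier results of these data known. Each member is named; array values are given for GNAI1, GNAI2, GNAI3, GNB1, GNB2 and GNG2 and for the 4 alpha, 2 beta and 4 gamma genes of smallest p. Of the partners, CXCR4 and the 3 of smallest p (CXCR4 among them) have values; others were named after their values were seen. No partner probe set was named here for RIC8A, RCE1 or ADCY6.

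Alternatives were other filters, renormalization, array weights, a trended robust prior, a replicate block, an unadjusted threshold, averaged probe sets and leaving out each array. Upstream sequences and gene order came from RefSeq tables (GRCh38.p14).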

Additional observations from a re-analysis of the deposited data

How the results depend on the processing

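The count of subunit genes past limma's adjusted threshold was 0 under each alternative that kept this threshold, including the 6 fits that left out 1 array; at an unadjusted p under 0.05 it was 1, as it was for the partner list. All probe sets gave 1 call with no filter, median centring or cyclic loess, 4 with array weights, 761 at an unadjusted p under 0.05, and 1 to 2 when each array was left out. With the replicate number as a block, 0 subunit genes passed and 2 of all probe sets; GNAO1 then missed an unadjusted p under 0.05. The labels state no pairing, and deviations of same-numbered arrays correlated at -0.19, -0.11 and 0.11. The subunit genes' median change was 0.020 under the 50% filter on dim probe sets, when 20 were tested. Signs turned for GNAS with median centring (-0.015) and array weights (-0.068) and for GNAI2 with array weights (-0.016), none past the threshold. When each array was left out, changes ran from -0.087 to 0.101 for GNAI2, -0.219 to 0.021 for GNAI3, -0.219 to 0.052 for GNAI1, -0.108 to 0.138 for GNAS, -0.066 to 0.040 for GNAL, -0.082 to 0.075 for GNAT2, -0.130 to 0.096 for GNA15, -0.324 to 0.026 for GNA11, -0.125 to 0.00017 for GNA12, -0.015 to 0.173 for GNA13, -0.108 to 0.016 for GNB1, -0.014 to 0.268 for GNB3, -0.022 to 0.073 for GNB4, -0.0035 to 0.222 for GNG4 and -0.144 to 0.048 for GNG5. The causes of these turns were not tested. The 11 genes above the markers were 11 under quantile normalization and without each array. A 95% interval typically reached 0.29 (log2) to either side of a change (median over all probe sets), which bounds what 3 arrays per group can show.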
